A study of Rattus norvegicus with 6 samples.

Results

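Cd36, Lpl and Lipe encode 3 proteins that bring fatty acids to a cell or set them free inside it. They were followed on cDNA arrays in 3 rat esophageal tumor cell lines, JB, JA and Amy. The genes were found by their symbols in the platform annotation, which gave 8 of 16128 spots. These were 1 clone for Cd36 (spots 15537 and 15538), 2 clones for Lpl (spots 4707 and 4708, and spots 13881 and 13882) and 1 clone for Lipe (spots 6491 and 6492), together 4 of 8064 clones and 3 of 3158 named genes. They were selected on their measured log2 ratios to the pool and the differences of these between lines, so both are described here without a test.

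Each tumor line was established from a tumor that reflux had induced. Its RNA was set against a pool that mixed 2 normal esophageal cell lines in equal parts. Each line was hybridized with the pool on 2 arrays, once with the line labelled in Cy3 and once in Cy5, 6 arrays in all. Both arrays of a pair carried the same RNA with exchanged dyes, so a line counts as 1 sample, and the pool is a single control shared by all arrays. The labels give no clone, passage, animal or culture for any line, and a ratio to the pool cannot tell its 2 normal lines apart.

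Values are log2 ratios of tumor line over normal pool, so 1 is a doubling and -1 a halving. The log base was taken as 2. The direction is likely rather than settled, since it rests on the titles, which name the line before the pool, and turning it would exchange higher and lower throughout. Array medians lay between -0.15 and -0.05, and the 2 arrays of a line correlated at 0.815 to 0.888 across 7180 features (named genes, each averaged over its spots, and clones that carry no single symbol). No spot intensities were used here, so a very large ratio cannot be told from a bound set by a dim channel. Of 17 listed markers of squamous esophageal epithelium 3 were measured. Galectin-7 (Lgals7) averaged -5.82 ± 1.01 and cystatin B (Cstb) -0.68 ± 0.46, both lower in the tumor lines (limma, adjusted p under 0.05), while annexin A1 (Anxa1) was higher at 1.39 ± 0.38 (SD, n = 3 lines). The call of Cstb was lost without JA (adjusted p = 0.181), without JB (0.0742) and with centred arrays (0.0650). The keratins that define this epithelium (Krt5, Krt14, Krt4 and Krt13) were not among the named genes. A ratio to the pool gives no level in either sample, so the tissue label was not checked.

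Circulating triglyceride reaches cells after lipoprotein lipase (Lpl), a secreted enzyme anchored at the vessel wall, splits it into free fatty acids. The membrane glycoprotein Cd36 binds long-chain fatty acids and helps them enter, and it is also a scavenger receptor for oxidized lipoproteins. Hormone-sensitive lipase (Lipe) works inside the cell, where it hydrolyses diglycerides and cholesterol esters of lipid droplets under control of protein kinase A. In tissues the 3 genes are best known from fat and muscle, and Cd36 also from macrophages and endothelium.

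The 3 genes behaved differently from each other. Cd36 was far lower than the pool in all 3 lines. Lpl was higher than the pool in JB and lower in JA and Amy. Lipe changed sign with the dye in JB and JA, and was lower than the pool on both arrays of Amy.

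**Figure D1:**
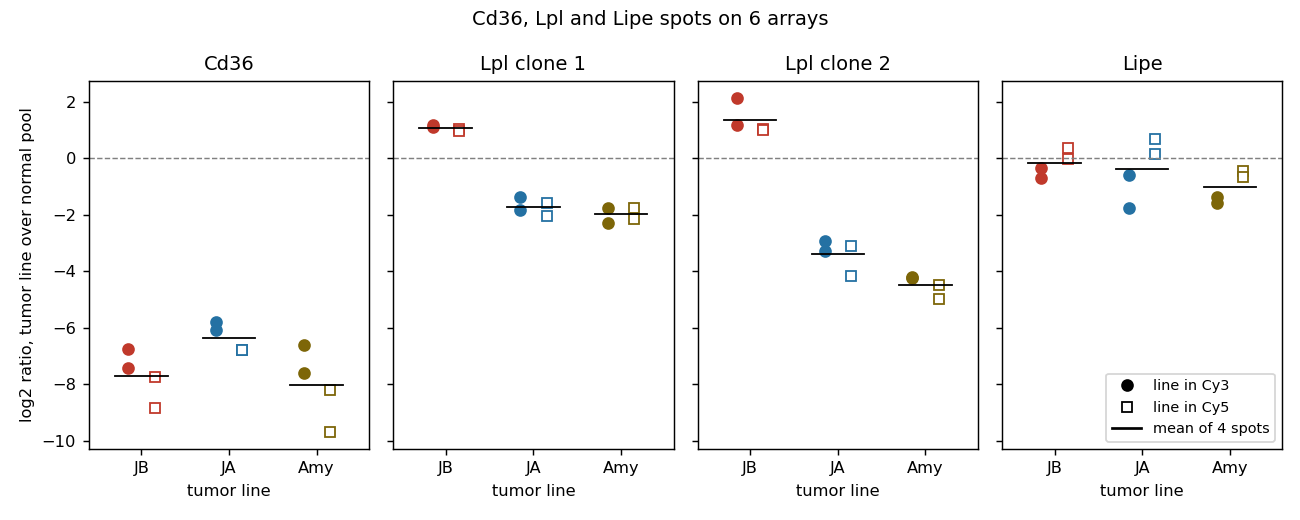
Log2 ratio of tumor line over normal pool (vertical axis) for every spot of the 4 clones, by tumor line (horizontal axis). Filled circles are arrays with the line in Cy3, open squares arrays with the line in Cy5, and the black bar is the mean of the 4 spots of a clone in a line. Cd36 lies below -5 throughout, both Lpl clones are above 0 in JB and below 0 in JA and Amy, and the Lipe squares lie above the circles in each line.

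Cd36, the fatty acid uptake receptor, had ratios of -7.09 and -8.28 in JB, of -5.93 and -6.78 in JA and of -7.10 and -8.94 in Amy (line in Cy3, then line in Cy5). All 6 arrays were thus below 0 by more than 5 units. The mean over lines was -7.36 ± 0.88 (SD, n = 3 lines), or 164-fold lower than the pool. Cd36 was the third lowest named gene, between the collagen chain Col1a2 at -8.90 and Srpx at -7.26, and place 9 from the lowest of all 7180 features. By line it was place 5 from the lowest in JB, 14 in JA and 6 in Amy. A ratio of -1 or lower on all 6 arrays was reached by 8.12% of features.

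The order of the lines for Cd36, from the least to the most reduced, was JA, JB and Amy. JB minus JA was -1.16 in Cy3 and -1.50 in Cy5. Single spots of these lines overlapped narrowly, at -6.76 for the highest in JB and -6.79 for the lowest in JA. JB and Amy were close. The difference JB minus Amy was 0.01 in Cy3 and 0.66 in Cy5, and the array ranges of these 2 lines overlapped. JA minus Amy was 1.17 in Cy3 and 2.16 in Cy5. JA was thus at least 1 above both other lines in both orientations, which 5 features, or 0.0696%, reached. Besides Cd36 the one named gene among them, given after its values were seen, was the phosphatase regulator Ppp1r10, at 0.24 in JB, 1.54 in JA and 0.42 in Amy. Each line is 1 sample, so none of these differences could be tested.

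The single Cd36 clone was also among the less repeatable ones. Its ratio was lower with the line in Cy5 in each line, and the difference Cy5 minus Cy3 was -1.19 in JB, -0.85 in JA and -1.84 in Amy. The mean absolute difference between dye orientations, 1.29, was at percentile 95.8 of all features, where the median was 0.31. Its 2 spots differed by 0.75 on average over the arrays, at percentile 94.5 of all clones, against a median of 0.14. These differences are small beside the ratio itself: the least reduced single Cd36 spot stood at -5.80, in JA with the line in Cy3.

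Most, but not all, measured markers of cell types in which Cd36 is known to be high were lower here. The samples are cell lines rather than tissue. The labels do not say that a line or the pool holds any of these cell types. A marker ratio is therefore no count of cells, and fewer cells of a type and less RNA per cell cannot be told apart. Of 3 other measured endothelial markers all were lower, from -2.39 for the VEGF receptor Kdr to -1.16 for the receptor kinase Tie1 (limma, adjusted p under 0.05). Of 5 other macrophage markers 3 were lower, Csf1r at -3.57 ± 0.11, lysozyme (Lyz2) at -2.48 ± 0.31 and the complement chain C1qc at -2.13 ± 0.09. The adaptor Tyrobp was higher at 0.67 ± 0.14, and the mannose receptor Mrc1, at 0.39 ± 0.19, did not pass (adjusted p = 0.0519 in limma). The call of Tyrobp was lost without JA (0.0596). The one other measured adipocyte marker, the carbonic anhydrase Car3, was lower at -5.11 ± 0.12. Fibroblasts are not among the cell types named above for Cd36, and all 9 of their markers were lower as well, with a median of -4.18. All 5 muscle markers were lower, with a median of -2.497. Of these, the tropomyosin Tpm1 no longer passed without JA (adjusted p = 0.124) or Amy (0.0907). Among all features 53.5% passed this test, 20.7% higher and 32.8% lower in the tumor lines. With every array centred on its own median, which moved the median of all features to -0.01 from -0.12, 25.4% were higher and 28% lower. Mrc1 then passed as higher (adjusted p = 0.0262 in limma). Whether any of these cell types bears on the Cd36 ratio was not tested, and levels in either normal line alone were not analysed here.

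Lpl, the secreted triglyceride lipase, differed in direction between lines. As the mean over both clones, its ratio was 1.40 and 1.01 in JB, against -2.35 and -2.73 in JA and -3.12 and -3.34 in Amy (line in Cy3, then line in Cy5). Both JB arrays were above the pool and all 4 arrays of JA and Amy below it. By line this is 2.31-fold higher than the pool in JB, 5.81-fold lower in JA and 9.38-fold lower in Amy. A ratio of 1 or higher on both arrays of JB was reached by 5.93% of features, and one of -1 or lower by 13.6% in JA and 12% in Amy. The mean over lines, -1.52 ± 2.39 (SD, n = 3 lines), therefore describes none of them, and without JB it was -2.88.

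The difference between JB and the other lines was nearly the same in both dye orientations. JB minus JA was 3.75 in Cy3 and 3.73 in Cy5, or 13.4-fold. JB minus Amy was 4.52 in Cy3 and 4.35 in Cy5, or 21.6-fold. Between the lower lines, JA minus Amy was 0.77 in Cy3 and 0.61 in Cy5. By the first clone alone, JA minus Amy was 0.42 and 0.12, and its spots in these lines overlapped. These differences can be set against the dye: the ratio of Lpl moved by 0.33 on average between orientations, at percentile 52.8 of all features.

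Both Lpl clones, annotated to the same sequence record, showed this order. The first clone stood at 1.13 and 1.00 in JB, against -1.60 and -1.82 in JA and -2.02 and -1.94 in Amy. The second stood at 1.67 and 1.02 in JB, against -3.10 and -3.63 in JA and -4.22 and -4.74 in Amy. All 4 JB spot values of each clone were above 0 and all 8 values of JA and Amy below 0. The clones differed in size. They were 0.28 apart in JB, 1.66 in JA and 2.502 in Amy. JB minus Amy was accordingly 3.05 by the first clone and 5.82 by the second, or 8.26-fold and 56.6-fold, so the size of the Lpl difference depends on the clone while its direction does not. Among 488 genes with 2 clones of 1 record the median clone difference, as a mean over lines, was 0.53, and that of Lpl, 1.48, was at percentile 83.6. Among the 177 of them with a clone mean beyond 1 in size the median was 1.20 and Lpl was at percentile 59.3.

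As the mean over its clones, Lpl had a wider spread between the lines than any other named gene. The range of its line means was 4.43, the largest of 3158 named genes and the second largest of 7180 features, where the median range was 0.44. JB exceeded the higher of the other lines by at least 3.73 in both orientations, again the largest value among named genes. Both places depend on the clone. The first clone alone had a range of 3.05, place 7 among named genes, and a least excess of 2.73, place 3. The second clone alone had a range of 5.82 and a least excess of 4.65, place 1 for both. An excess of at least 1 of JB over both other lines in both orientations was seen for 1.3% of features. A ratio of 1 or higher on both JB arrays with -1 or lower on all 4 arrays of JA and Amy was seen for 3 features, or 0.0418%. Besides Lpl these were Nid2, which encodes the basement membrane protein nidogen-2, and a clone with no gene symbol (spots 7073 and 7074). They were named after their values were seen. Nid2 stood at 1.45 in JB, against -2.84 in JA and -2.20 in Amy. The unnamed clone stood at 3.29 in JB, against -1.80 in JA and -2.13 in Amy, and was the one feature with a wider range than Lpl.

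**Figure D2:**
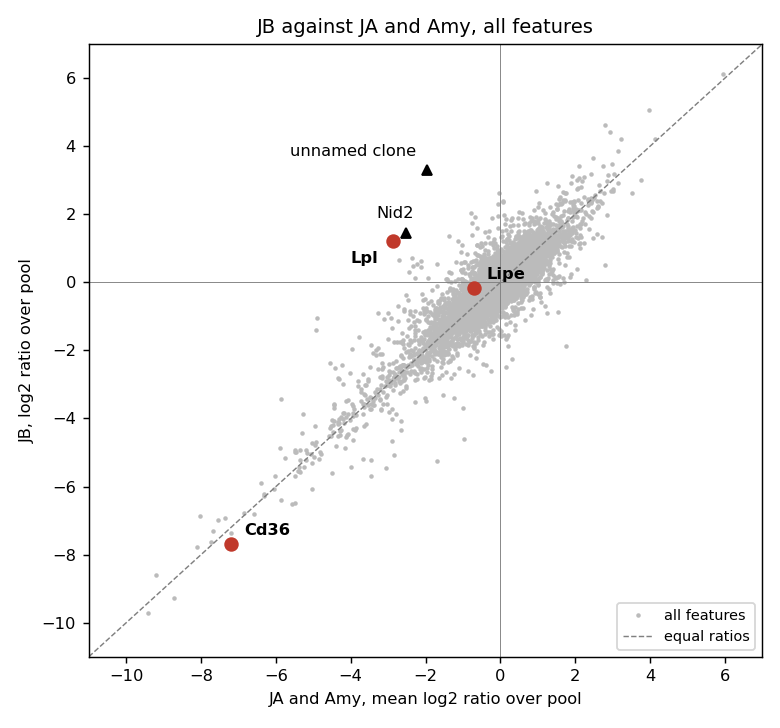
Log2 ratio over the pool in JB (vertical axis) against the mean of JA and Amy (horizontal axis) for 7180 features, each as the mean of both dye orientations. The dashed line marks equal ratios. Lpl, Nid2 and the unnamed clone lie in the upper left, above the pool in JB and below it in JA and Amy. Cd36 lies at the low end near the line of equal ratios, and Lipe within the cloud of all features.

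The 5 genes nearest to Lpl were picked by the root mean square difference of the log2 ratio over the 6 arrays. These genes shared its direction in every line, which follows from that choice. They were the receptor tyrosine kinase Axl (difference 0.36), the ion transport regulator Fxyd5 (0.72), the sphingosine 1-phosphate receptor S1pr4 (0.72), Nid2 (0.74) and Pnkd (0.83). Axl stood at 0.66 in JB, against -2.32 in JA and -3.10 in Amy, so it also shared the order of JA above Amy. Fxyd5 had the same order, with 0.71 in JB, against -2.15 in JA and -2.59 in Amy. S1pr4, at 0.29 in JB, against -2.48 in JA and -2.42 in Amy, did not separate the lower lines. In Pnkd the ratio was 0.46 in JB, against -2.21 in JA and -2.05 in Amy. Each of the 5 was measured by 1 clone. The pattern of JB above 0 and both other lines below 0 on every array was seen for 145 features (2.02%).

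**Figure D3:**
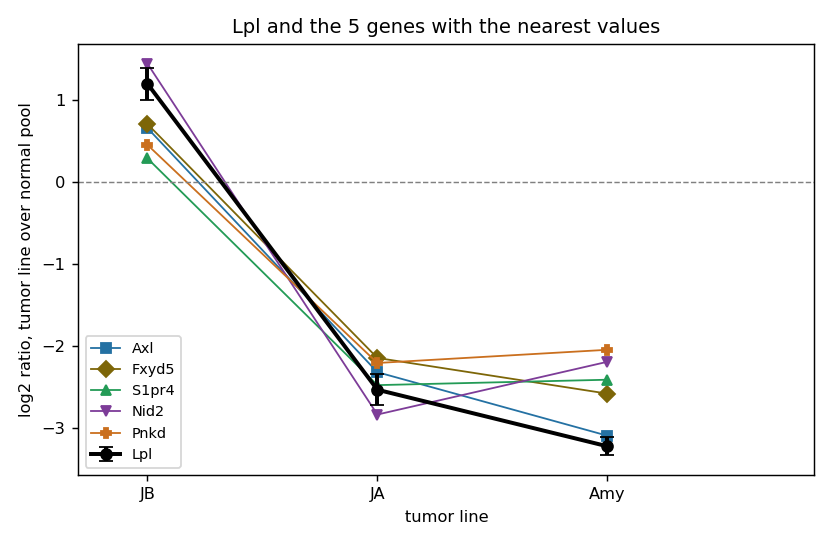
Log2 ratio over the pool (vertical axis) in JB, JA and Amy (horizontal axis) for Lpl, in black, and its 5 nearest genes. Points are means of the 2 arrays of a line, error bars on Lpl span its 2 arrays, and the lines only join the points of a gene. All 6 genes are above 0 in JB and below -2 in JA and Amy.

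For Cd36 the nearest genes were all among the lowest of the array, which its own place sets. They were midkine (Mdk, difference 1.304), Srpx (1.31), the calcineurin regulator Rcan2 (1.44), the retinoic acid binding protein Crabp2 (1.60) and Col1a2 (1.69). Their differences from Cd36 were larger than those of the genes nearest to Lpl, and their order of lines varied. Srpx was lowest in JA at -7.84, the line in which Cd36 was least reduced, against -7.36 in JB and -6.58 in Amy. Col1a2 shared with Cd36 the least reduced value in JA, at -8.39, against -9.27 in JB and -9.04 in Amy.

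Lipe, the lipase of lipid droplets, had ratios of -0.51 and 0.17 in JB, of -1.19 and 0.41 in JA and of -1.48 and -0.57 in Amy (line in Cy3, then line in Cy5). In JB and JA the sign turned with the dye, and in Amy both arrays were below 0. A change of sign between the 2 arrays of at least 2 lines was seen for 16.7% of features. The mean over lines was -0.53 ± 0.44 (SD, n = 3 lines). It was -1.06 when the line carried Cy3 and 0.0035 when it carried Cy5, so no direction can be given for Lipe over the lines. The dye difference had the same sign in each line, at 0.68 in JB, 1.60 in JA and 0.92 in Amy, with the higher ratio in Cy5. Its mean of 1.06 was at percentile 93.7 of all features, and it ran opposite to the dye difference of Cd36.

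Within a dye orientation, no difference between lines reached 1 for Lipe. JB minus Amy was 0.97 in Cy3 and 0.73 in Cy5, and JA minus Amy 0.30 in Cy3 and 0.98 in Cy5, so Amy was the lowest line in both orientations. JB minus JA was 0.67 in Cy3 and -0.24 in Cy5, without a common direction. The range of the line means, 0.85, was at percentile 83.0 of all features. The 2 spots of the Lipe clone differed by 1.16 on the array with Cy3-labelled JA (-1.77 and -0.60) and by 0.21 to 0.52 elsewhere.

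**Figure D4:**
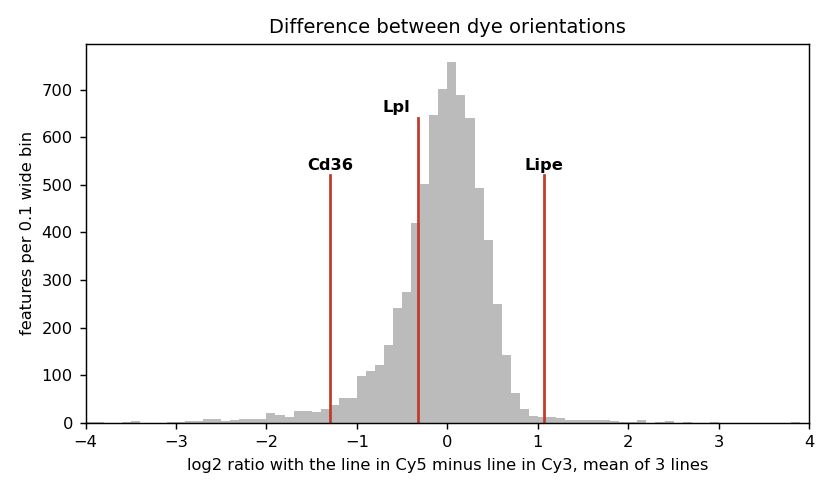
Number of features (vertical axis, bins 0.1 wide) by the mean over 3 lines of the log2 ratio with the line in Cy5 minus that with the line in Cy3 (horizontal axis). Red lines mark Cd36 at -1.29, Lpl at -0.33 and Lipe at 1.06, so that Cd36 and Lipe lie in opposite tails and Lpl near the bulk.

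The genes nearest to Lipe were Paf1 (difference 0.38), a subunit of a transcription elongation complex, the focal adhesion protein tensin-1 (Tns1, 0.38), Cep44 (0.40), Yrdc (0.40) and Tmbim6 (0.43). All 5 likewise had a lower mean ratio with the line in Cy3 than in Cy5, as in Tns1 with -0.91 in Cy3 and -0.25 in Cy5. Likeness to Lipe therefore includes the dye difference.

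Other genes of fatty acid handling were read from 6 lists, of which 62 genes besides the members were measured. Across the lists 6 genes were higher and 30 lower, and 26 missed the threshold (limma, adjusted p under 0.05), so 58.1% were called. Among all features 53.5% were called, 20.7% higher and 32.8% lower. Of the 3158 named genes, the closer background, 55.1% were called, 731 higher and 1009 lower. The median of the listed genes was -0.39, beside -0.12 for all features and -0.06 for named genes. By list the share called was 50% for uptake, 62.5% for lipase partners and 44.4% for lipolysis. It was 50% for transcription factors, 63.2% for oxidation and 75% for synthesis. No list was tested as a set. Ratios were moderate: in no listed gene was the mean beyond 2 in size. Of the 62 genes, 1 exceeded both other lines in JB by at least 1 in both orientations, as Lpl did. It was the desaturase Fads1, at 0.58 in JB, against -1.42 in JA and -0.93 in Amy, and it was named after its values were seen. The mean of Fads1 did not pass (adjusted p = 0.253 in limma), and its sign in JB turned with the dye.

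**Figure D5:**
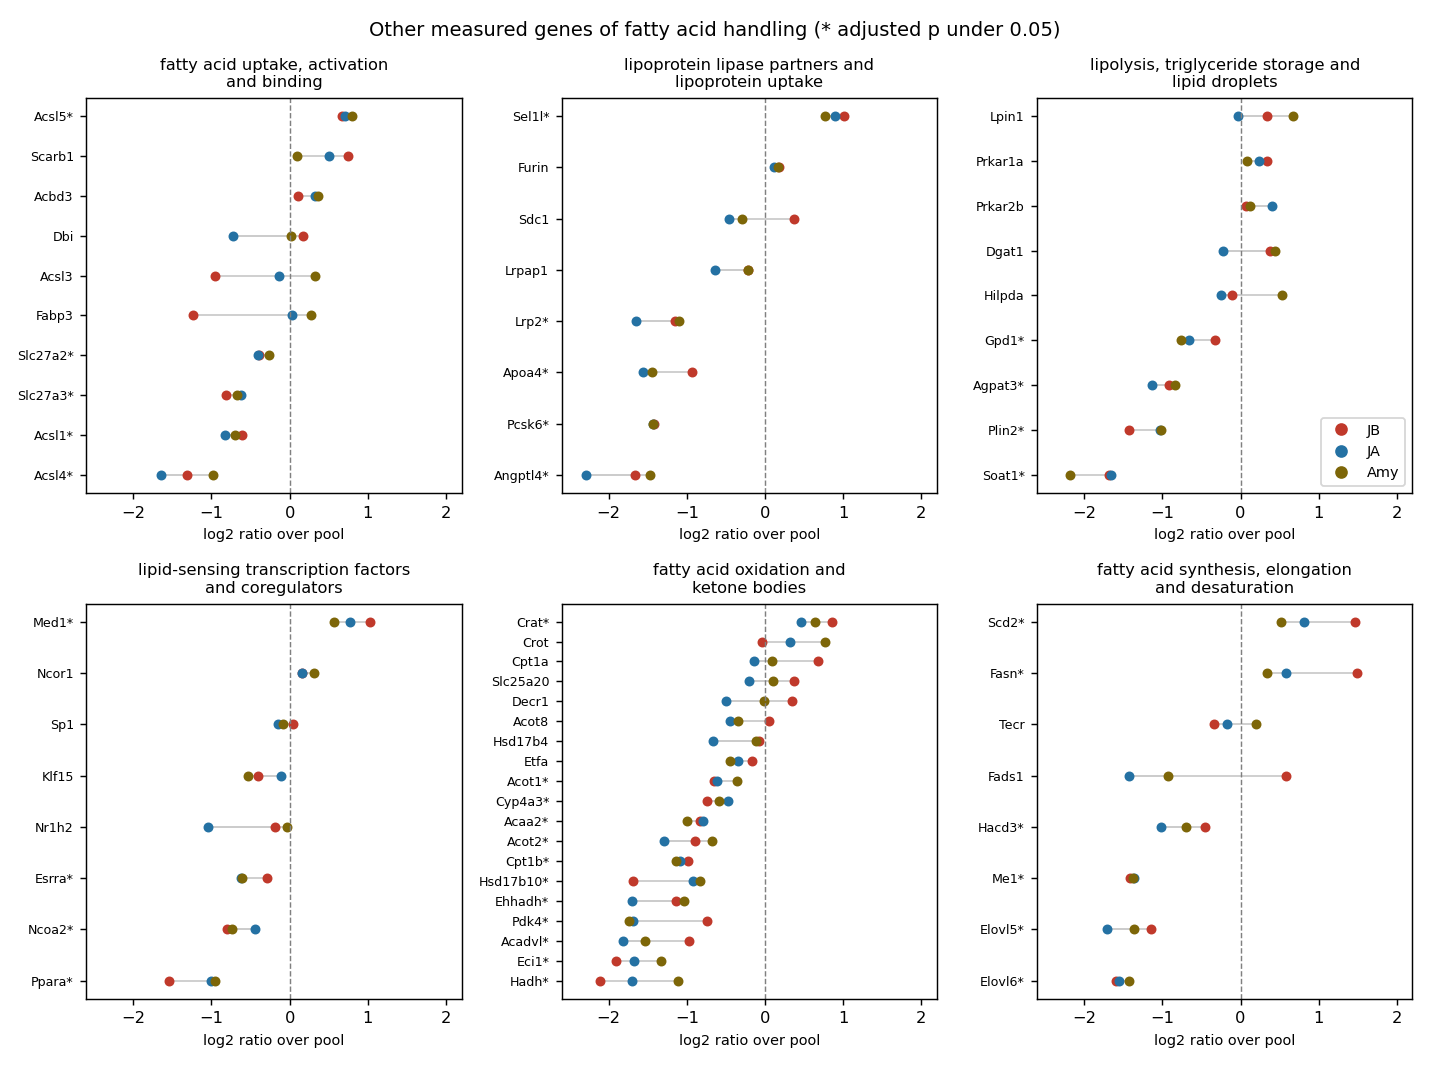
Log2 ratio over the pool (horizontal axis) of 62 other genes of fatty acid handling, by list, with 1 row per gene. Points are JB (red), JA (blue) and Amy (brown), each the mean of 2 arrays, and a star marks an adjusted p under 0.05 in limma over the 3 lines. Most starred genes lie below 0 in all 3 lines.

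Among genes of fatty acid uptake, activation and binding, 4 of 10 were lower, 1 was higher and the median was -0.28. The acyl-CoA synthetases, which trap fatty acids in the cell as acyl-CoA, were split. Acsl4 fell to -1.31 ± 0.33 (adjusted p = 0.00273) and Acsl1 to -0.71 ± 0.11, while Acsl5 rose to 0.73 ± 0.07 (adjusted p = 0.00525 in limma). Acsl3 did not pass, at -0.25 ± 0.65 (adjusted p = 0.446), with -0.95 in JB, -0.13 in JA and 0.33 in Amy. The fatty acid transport proteins Slc27a3 and Slc27a2 were lower at -0.70 ± 0.10 and -0.35 ± 0.08. The call of Slc27a2 (adjusted p = 0.0487) was lost without any one of the lines or arrays and with centred arrays (adjusted p = 0.135), and that of Acsl1 without JA (0.0506). Without JA the list had 3 calls. Scarb1, the HDL receptor of the same family as Cd36, averaged 0.45 ± 0.33 and did not pass (adjusted p = 0.0659), but passed as higher with centred arrays (0.0318), where the list had 3 lower and 2 higher genes. The fatty acid binding protein Fabp3 stood at -1.24 in JB, against 0.03 in JA and 0.27 in Amy, and its mean did not pass (0.429).

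Among partners of lipoprotein lipase and lipoprotein receptors, 4 of 8 were lower, 1 was higher and the median was -0.83. Angptl4, a secreted inhibitor of Lpl, was lower at -1.81 ± 0.43 (adjusted p = 0.00169 in limma). It was lower in every line, with -1.67 in JB, -2.29 in JA and -1.47 in Amy, so it did not follow the turn of Lpl in JB. The proprotein convertase Pcsk6 was lower at -1.43 ± 0.01, the apolipoprotein Apoa4 at -1.32 ± 0.34 and the endocytic receptor megalin (Lrp2) at -1.30 ± 0.31. Sel1l, an adaptor of endoplasmic reticulum quality control that in mice is needed for Lpl to leave that compartment, was higher at 0.89 ± 0.12 (adjusted p = 0.00343). The heparan sulfate proteoglycan Sdc1 stood at 0.37 in JB, against -0.46 in JA and -0.30 in Amy, the same signs as Lpl at a far smaller size, and its mean did not pass (0.594).

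Among genes of lipolysis, triglyceride storage and lipid droplets, 4 of 9 were lower and none of the others passed, with a median of 0.06. The lipid droplet coat protein Plin2 was lower at -1.16 ± 0.23 (adjusted p = 0.00248 in limma). Soat1, which esterifies cholesterol for storage, was lower at -1.84 ± 0.29, the acyltransferase Agpat3 at -0.96 ± 0.15 and the glycerol phosphate dehydrogenase Gpd1 at -0.58 ± 0.23. The call of Gpd1 (adjusted p = 0.0188) was lost without JA (0.106) or Amy (0.0949), without the JB array with Cy5 on the line (0.114) and on the arrays with Cy3 on the line (0.131). The regulatory subunits Prkar1a and Prkar2b of protein kinase A, the kinase that activates Lipe, averaged 0.22 ± 0.13 and 0.20 ± 0.18 and did not pass (adjusted p = 0.182 and 0.243). Dgat1, which makes the last step of triglyceride synthesis, averaged 0.20 ± 0.37 and did not pass (0.377).

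Among lipid-sensing transcription factors and coregulators, 3 of 8 were lower, 1 was higher and the median was -0.39. The nuclear receptor Ppara, which activates genes of fatty acid oxidation, was lower at -1.17 ± 0.33 (adjusted p = 0.00381 in limma). The coactivator Ncoa2 at -0.66 ± 0.19 and the orphan receptor Esrra at -0.51 ± 0.19 were lower, and Med1, a mediator subunit that binds nuclear receptors, was higher at 0.79 ± 0.23. Without JA the calls of Med1 (adjusted p = 0.0540) and Esrra (0.126) were lost, and without Amy those of Ncoa2 (0.0605) and Esrra (0.111). The list had 2 calls without either line. Pparg, the nuclear receptor of adipocytes, was not among the named genes.

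Among genes of fatty acid oxidation, 11 of 19 were lower, 1 was higher and the median was -0.61. Not all enzymes of mitochondrial oxidation passed. The hydroxyacyl-CoA dehydrogenase Hadh was lower at -1.64 ± 0.50 (adjusted p = 0.00307 in limma), the isomerase Eci1 at -1.64 ± 0.29 and the very long chain dehydrogenase Acadvl at -1.44 ± 0.43. The reductase Decr1, at -0.06 ± 0.42 (0.809), and the electron transfer subunit Etfa, at -0.32 ± 0.14 (0.0758), did not pass. Decr1 stood at 0.34 in JB, against -0.50 in JA and -0.02 in Amy. Pdk4, the kinase that turns pyruvate dehydrogenase off when fatty acids are burned, was lower at -1.40 ± 0.56 (adjusted p = 0.00610 in limma), a call lost without JA (0.0563). The muscle isoform of the carnitine transferase at the entry of the pathway, Cpt1b, was lower at -1.07 ± 0.07. The 1 higher gene was the carnitine acetyltransferase Crat at 0.65 ± 0.20 (adjusted p = 0.0118). Its call was lost without Amy (0.0585), without the JA array with Cy3 on the line (0.136) and on the arrays with Cy5 on the line (0.412, where its mean was 0.16). The liver isoform Cpt1a averaged 0.21 ± 0.42 and did not pass (0.378).

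Among genes of fatty acid synthesis, elongation and desaturation, 4 of 8 were lower, 2 were higher and the median was -0.66. The elongases Elovl6 and Elovl5 were lower at -1.52 ± 0.08 and -1.41 ± 0.28, malic enzyme (Me1), which supplies NADPH for synthesis, at -1.38 ± 0.03 and Hacd3 at -0.73 ± 0.28. Fatty acid synthase (Fasn) was higher at 0.80 ± 0.61 (adjusted p = 0.0417 in limma) and the desaturase Scd2 at 0.93 ± 0.49 (0.0158). Both were highest in JB, where Fasn stood at 1.49, against 0.58 in JA and 0.33 in Amy. The call of Fasn was lost without JB (adjusted p = 0.0578), JA (0.124) or Amy (0.0543), without the Cy5-labelled JA (0.0584) or Amy (0.0605), and with Cy3-labelled lines alone (0.0786). The call of Scd2 was lost without JA (0.0802), and that of Hacd3 without JA (0.0711) or Amy (0.0605). Without JA the list had 3 calls.

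The test sets 3 lines against 1 pool with no replicate of its own. With a spread assumed for the pool, as large as that of an average of 2 lines, 1970 of 7180 features passed in place of 3843, and with variances not moderated across features 1040 passed. The pool spread removed the calls of Slc27a2, Ncoa2, Med1, Esrra, Fasn, Scd2, Hacd3, Gpd1 and Crat. Among markers it removed those of Tyrobp, Tpm1, Cstb and the fibroblast marker Fbn1. Without moderation these calls were lost as well, and so, among others, were those of Angptl4, Acsl4, Plin2, Soat1, Ppara, Hadh, Eci1 and Acadvl.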

How the data were processed

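Two-colour cDNA arrays compared RNA of 3 tumor lines with 1 normal pool. Each deposited value was a log ratio of a spot on an array, taken as log2 because the lowest value, -12.7, would exceed a scanner's range in base 10. How arrays were scanned, background-corrected, normalized and filtered is not given in the sources used here. Arrays of a pair correlated positively, so no sign was changed. Adjacent spots formed clones, and a gene was the mean over its spots. Symbols came from the platform annotation, and 8076 spots were matched by gene identifier to GRCr8 genes in RefSeq, and 0 symbols changed.

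The arrays of a line were averaged. An intercept-only model of the 3 line values was fitted in limma 3.58.1 (lmFit, eBayes; two-sided against 0) in R 4.3.3, with Benjamini-Hochberg adjustment over 7180 features at 0.05. The fit was tested on simulated data. The p-values measure only the spread between these lines. Differences between lines were described by a log2 size of 1 in both dye orientations. No low-value filter was used.

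The titles do not number the arrays of a line as 1 and 2, so the arrays were told apart by the dye on the line. The Cy5 minus Cy3 difference correlated at 0.526 to 0.613 between lines, so dye orientation was used as the block in the replicate block alternative. Genes named were the members, the 5 genes nearest to each by root mean square difference over 6 arrays, and from each list up to 4 called genes per direction with the largest mean and no change of sign between arrays. Gpd1, Cpt1b, Crat, Fads1, Nid2, Ppp1r10, the markers and the listed genes given as not passing were added after their values were seen. The members, lists and tests were chosen with earlier results of these data known. Alternatives covered array scaling, single dye orientations, lines, arrays, clones and spots left out, a replicate block, a spread for the pool, other variances and another threshold. Figures were drawn with matplotlib 3.10.9.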

Additional observations from a re-analysis of the deposited data

Results flagged for a closer look

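For 7 genes named above and the unnamed clone, every array of JB was above the pool while every array of JA and Amy was below it. The difference of JB minus the mean of JA and Amy was 4.09 for Lpl, 3.97 for Nid2, 3.37 for Axl, 3.08 for Fxyd5, 2.74 for S1pr4, 2.59 for Pnkd, 0.75 for Sdc1 and 5.25 for the unnamed clone on the log2 scale. Across all 7180 features, 145 (2.02%) had this pattern of signs. In other genes named above, other lines stood on opposite sides of the pool on both arrays. Amy was above it and JB below it for Fabp3, with a difference of 1.51. Amy was above it and both other lines below it for Acsl3, with a difference of 0.87. JB and Amy were above it and JA below it for Dgat1, with a difference of 0.64. JB was above it and JA below it for Decr1, with a difference of 0.84. The share of all features with these other patterns was not counted. The differences were not tested, since each line is 1 sample. Axl, Fxyd5, S1pr4, Nid2 and Pnkd were picked for their nearness to Lpl, so their agreement with it follows from that choice.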

How the results depend on the processing

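The counts and the ratios of the members were recomputed under each alternative. In place of 3843 features, 1970 of 7180 were called with a spread for the pool, 1040 with unmoderated variances and 2290 at an adjusted p under 0.01, and 2076 to 3716 when a line or array was left out. With arrays centred on the median 1824 features were called higher and 2009 lower, in place of 1487 and 2356. The same settings moved list counts. With a spread for the pool, calls fell to 1 of the transcription factors and 3 of the synthesis genes. With unmoderated variances, 2 uptake, 2 lipase partner, 0 lipolysis, 0 transcription factor, 2 oxidation and 2 synthesis genes were called. In that fit 0 of the lipolysis list's genes passed limma's ordinary statistic, against 4 in the moderated test. At 0.01, 2 transcription factors and 3 synthesis genes were called. With a line or array left out, counts were 3 to 5 for uptake, 5 to 5 for lipase partners, 3 to 4 for lipolysis, 2 to 5 for transcription factors, 9 to 13 for oxidation and 3 to 7 for synthesis. With the replicate block, that is dye orientation as a block and line as a random block, 3913 features were called, and no count changed by over 1.5 times.

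The mean of Lipe was -1.06 with the line in Cy3 and 0.0035 with the line in Cy5. The ratio of Lpl by its first and second clone was -1.71 and -3.37 in JA and -1.98 and -4.48 in Amy, and in Amy it was -3.54 with arrays scaled to a common spread, an alternative chosen after seeing the data. With a line or array left out, the mean over lines was -7.86 to -7.02 for Cd36, -2.88 to -0.67 for Lpl and -0.79 to -0.26 for Lipe. The number of arrays and lines limits the precision, and signal over background was not analysed here.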
